A study of Mus musculus with 16 samples.

Results

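The 30 genes described here encode cytokines, chemokines and the adhesion molecules that stop leukocytes on the vessel wall, with a few regulators of the same response. They were taken by name from a table of read counts for 24011 gene symbols, and all 30 are in it. In a vessel under inflammatory stress, endothelial cells display selectins and the adhesion molecules VCAM-1 and ICAM-1, while chemokines draw leukocytes in and tell them where to stop. Many of these genes are switched on by NF-κB, a transcription factor held in the cytoplasm by the inhibitor IκBα. Several of the products, IκBα and the ubiquitin-editing enzyme A20 among them, switch the response off again. Estrogen receptors are known to restrain NF-κB target genes in vascular cells, and the liver answers interleukin 6 with its acute phase proteins.

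The tissues came from wild-type female C57BL/6 mice, all ovariectomized at 6 to 7 weeks of age with tissue taken 1 week later, so every group lacked ovarian hormones. Aortas, or tips cut from the main lobe of the liver, were cultured in DMEM with 10 nM 17β-estradiol (E2, the natural estrogen of the ovary) for 4 h, or with its solvent ethanol (vehicle). The 4 groups, of 4 libraries each, were aorta with vehicle, aorta with E2, liver with vehicle and liver with E2. By its title, the study asked how estrogen acts on genes in aorta and in liver. Every group had been cut out and cultured, and no uncultured tissue is among the 16 libraries, so the levels below are levels after culture. Per the labels, 8 libraries were made from 50 ng of RNA with an Ovation kit, on 2 sequencing instruments, and 8 by poly-A selection from 600 ng of RNA of a single aorta or liver fragment. The series text describes 2 replicates per condition, each pooling tissue of 4 mice, and does not cover the poly-A libraries. Columns carry the suffixes o1, o2, n1 and n2, which no label explains, and values per library are given below in that order. The labels do not tie these letters to the kits. Whether libraries of the same letter come from separate animals, is not stated, so p-values measure the spread between these libraries, which may be technical.

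Counts in genes ran from 3896733 to 19823982 per library, which were 24.7% to 51.6% of the reads counted or in no annotated gene. A precursor of ribosomal RNA, Rn45s, took 25.7% to 34.5% of gene counts in the o libraries of liver. Levels are counts scaled to 1000000 per library (CPM) on library sizes normalized by TMM. Smooth muscle markers summed to 11060.1 to 18189 CPM in aorta with vehicle against 193 to 503 in liver with vehicle, and hepatocyte markers to 110.5 to 648 against 84446 to 141193, so both tissues carried their own markers. Endothelial markers summed to 1123 to 1153 CPM in aorta and 975 to 1162 in liver. Macrophage markers summed to less in aorta, 229 to 445 CPM against 529 to 1585, and lymphocyte markers stood at 17.4 to 279 against 45.4 to 107.

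Upstream sequences are shown for 5 members: 3 that were lower with E2 in the aorta libraries of every suffix and carry an NF-κB motif (Il6, Cxcl1, Cxcl2), the member with the smallest p for E2 in aorta (Csf2), and the gene of IκBα, a target and inhibitor of NF-κB (Nfkbia). Each is the 250 bases before the start site, 5′ to 3′ on the gene's strand, from RefSeq on build GRCm38.p6. Capitals mark matches to the κB motif.

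Il6, chr5:30012864-30013113, plus strand: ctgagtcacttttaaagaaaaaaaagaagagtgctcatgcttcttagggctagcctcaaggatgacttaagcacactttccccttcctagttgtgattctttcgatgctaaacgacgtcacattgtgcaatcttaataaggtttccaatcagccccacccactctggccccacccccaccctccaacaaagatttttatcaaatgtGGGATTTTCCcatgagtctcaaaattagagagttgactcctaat

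Cxcl1, chr5:90890995-90891244, plus strand: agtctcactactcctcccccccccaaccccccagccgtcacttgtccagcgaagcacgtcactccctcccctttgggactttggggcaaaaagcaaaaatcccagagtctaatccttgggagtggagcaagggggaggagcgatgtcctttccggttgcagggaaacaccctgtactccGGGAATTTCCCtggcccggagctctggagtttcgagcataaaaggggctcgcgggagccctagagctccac

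Cxcl2, chr5:90903649-90903898, plus strand: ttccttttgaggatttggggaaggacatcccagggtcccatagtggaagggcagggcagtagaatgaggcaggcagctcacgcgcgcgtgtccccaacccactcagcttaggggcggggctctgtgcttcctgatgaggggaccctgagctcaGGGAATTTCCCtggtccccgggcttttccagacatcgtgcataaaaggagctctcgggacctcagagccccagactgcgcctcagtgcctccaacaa

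Csf2, chr11:54249900-54250149, minus strand: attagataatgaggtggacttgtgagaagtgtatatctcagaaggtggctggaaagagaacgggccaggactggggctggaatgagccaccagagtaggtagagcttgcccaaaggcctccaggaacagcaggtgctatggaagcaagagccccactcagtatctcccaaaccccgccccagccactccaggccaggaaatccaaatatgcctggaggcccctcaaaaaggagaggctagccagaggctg

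Nfkbia, chr12:55492648-55492897, minus strand: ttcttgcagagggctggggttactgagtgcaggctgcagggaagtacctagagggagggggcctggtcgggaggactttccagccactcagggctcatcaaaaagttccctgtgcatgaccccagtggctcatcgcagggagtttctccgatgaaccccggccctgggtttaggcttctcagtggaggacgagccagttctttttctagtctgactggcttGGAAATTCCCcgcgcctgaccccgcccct

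The κB match begins 44 bases before the start site in Il6 and 29 bases before it in Nfkbia. Cxcl1 and Cxcl2, neighbouring genes for neutrophil attractants, share the same run of letters, in which 2 overlapping matches begin 71 and 70 bases before the start in Cxcl1 and 97 and 96 bases before it in Cxcl2. RefSeq promoters were matched for 22 members, and the other 8 are Vcam1, Ccl2, Ccl7, Ccl5, Ccl11, Cxcl5, Csf3 and Nfkb1. These 22 members have 26 promoters, as some have several. On either strand, 7 of the 26 hold a κB match, against 3.90% of 32851 mouse promoters of this length. The 7 belong to Csf1, Cxcl1, Cxcl2, Cxcl10, Il6, Nfkbia and Tnfaip3. An AP-1 motif, TGANTCA, lies in 8 of the 26, against 6.75% of promoters, and Il6, Cxcl10 and Tnfaip3 hold both. The full estrogen response element, GGTCANNNTGACC, lies in 0 of the 26 and in 0.0639% of promoters. A match describes letters and shows no binding. With E2 in aorta, members with a κB match lay on both sides of 0. The log2 differences were −0.78 for Il6, −0.69 for Cxcl1, −0.68 for Cxcl2 and −0.22 for Csf1. They were −0.047 for Nfkbia, 0.10 for Cxcl10 and 0.14 for Tnfaip3. A link between the motif and E2 was not tested.

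With vehicle, most of these genes stood higher in aorta than in liver. Of 28 members tested, 17 were higher in aorta past both thresholds, an adjusted p under 0.05 and a log2 difference over 1, against 24.1% of the 12607 genes tested. Only Il1a was lower past both, against 23.4% of genes. The median log2 difference was 2.15 over the members and 0.054 over all genes (edgeR, quasi-likelihood F test, Benjamini-Hochberg adjusted, 4 libraries a group). In whole tissue, fewer cells of a type and less RNA per cell cannot be told apart.

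**Figure D1:**
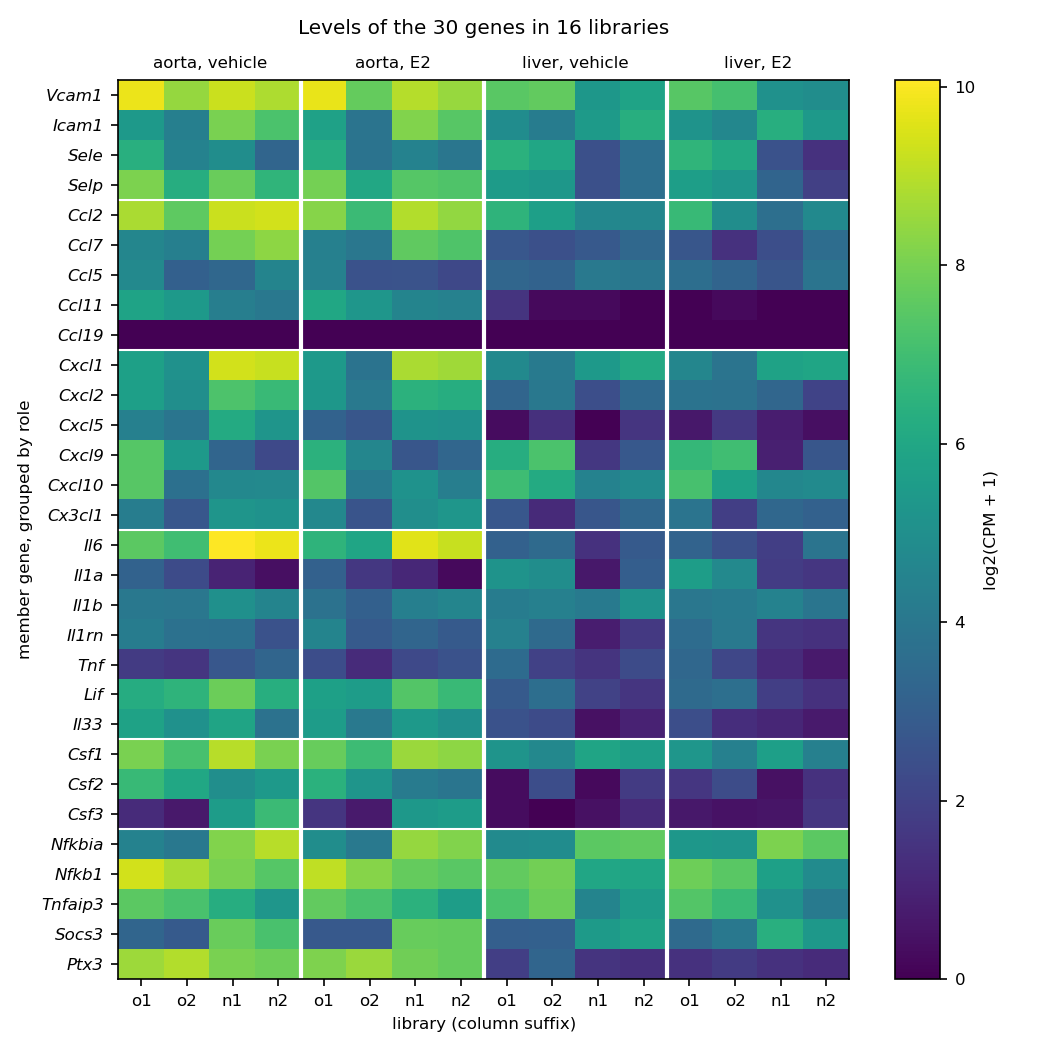
Level of each of the 30 genes (rows, grouped by role) in the 16 libraries (columns), as log2(CPM + 1) in colour. Il6, Ptx3, Ccl11, Csf2 and Lif are bright in aorta and dark in liver, Ccl19 is at 0 throughout, and Socs3, Nfkbia and Cxcl1 are brighter in the n than in the o libraries of both tissues.

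Among adhesion molecules, Vcam1, whose product binds integrins on lymphocytes and monocytes, was higher in aorta by 2.52 ± 0.46 (log2, SE, adjusted p 0.000697, edgeR with Benjamini-Hochberg adjustment). Selp, the gene of P-selectin, which starts leukocyte rolling, was higher by 2.99 ± 0.60. Icam1, which binds the leukocyte integrin LFA-1, was higher by 1.03 ± 0.38, with an adjusted p of 0.0398, and edgeR gave 0.0564 with the suffix as a block. Sele, the gene of E-selectin, did not differ detectably, at 0.18 ± 0.55.

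Chemokine genes ranged widely. Ccl11, which encodes eotaxin, the attractant of eosinophils, stood at 56.0, 42.5, 19.0 and 15.4 CPM in aorta with vehicle and at 1.87, 0.203, 0.188 and 0 in liver with vehicle. Only 10 Ccl11 counts were found in the 4 liver libraries, and no liver value reached the lowest of aorta, a log2 difference of 6.39 ± 0.60. Ccl7, the gene of a monocyte attractant, stood at 5.60, 4.47, 6.01 and 9.66 CPM in liver and 23.8, 19.2, 246 and 329 in aorta, a difference of 3.68 ± 0.61. Every Ccl7 value of aorta lay above those of liver, and the gap was wider in the n than in the o libraries.

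Ccl2, for the monocyte attractant MCP-1, was higher in aorta by 3.38 ± 0.53. For the neutrophil attractants the log2 differences were 2.95 ± 0.56 for Cxcl2, 2.25 ± 0.51 for Cxcl1 and 4.91 ± 0.73 for Cxcl5, which in liver stood at 0.267, 1.63, 0 and 1.90 CPM. Cx3cl1, for fractalkine, a chemokine that is tethered to the endothelial surface, was higher by 2.06 ± 0.35. The T cell attractants of the interferon response did not differ past the thresholds, at 0.14 ± 0.53 for Cxcl9 and −0.44 ± 0.45 for Cxcl10. Nor did Ccl5, for RANTES, at 0.34 ± 0.41. Ccl19, which guides T cells and dendritic cells in lymphoid tissue, had no count in any of the 16 libraries, and a count of 0 allows up to 3 counts in a library.

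Il6, the gene of interleukin 6, stood at 7.74, 10.3, 1.69 and 6.18 CPM in liver with vehicle and at 186, 127, 1076 and 866 in aorta with vehicle. The lowest aorta library lay far above the highest of liver, and the log2 difference was 5.96 ± 0.83. Lif, which encodes another cytokine that signals through gp130, stood at 6.14, 11.4, 3.0 and 1.90 CPM in liver and 73.9, 92.2, 225 and 77.9 in aorta, a difference of 4.51 ± 0.60. Il33, an alarmin gene of stromal and endothelial nuclei, stood at 4.80, 3.96, 0.375 and 0.950 CPM in liver and 54.5, 33.2, 58.0 and 12.9 in aorta (4.22 ± 0.63). For both genes no library of liver reached the lowest of aorta.

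Il1a, which encodes interleukin 1α, went the other way, at 34.7, 29.4, 0.563 and 6.97 CPM in liver and 8.00, 3.93, 0.996 and 0.314 in aorta (−2.51 ± 0.61). Without the vehicle liver library n2 this gene no longer passed, and 0 members were called lower. Il1b (−0.13), Tnf (0.0060) and Il1rn, the gene of the interleukin 1 receptor antagonist (1.13), did not pass.

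The growth factor genes of myeloid cells that could be tested were higher in aorta. Csf2, for GM-CSF, stood at 0.267, 4.27, 0.188 and 2.38 CPM in liver and 109, 62.4, 30.4 and 42.3 in aorta, with no overlap, a difference of 4.98 ± 0.67. Csf1, for M-CSF, which macrophages need to survive, was higher by 2.74 ± 0.32. Csf3, for G-CSF, was not tested here, as it was low in liver and also in the o libraries of aorta (8 and 13 counts with vehicle). Ptx3, which encodes the long pentraxin, a secreted pattern recognition protein, showed the highest log2 difference among members, 6.71 ± 0.40, with 2.67, 8.84, 1.88 and 1.58 CPM in liver against 383, 483, 263 and 227 in aorta. Of the intracellular regulators Nfkb1, an NF-κB subunit gene, was higher by 1.55 ± 0.31. Nfkbia (0.20), Tnfaip3, the gene of A20 (0.27), and Socs3, an inhibitor of interleukin 6 signalling (0.98), did not pass.

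**Figure D2:**
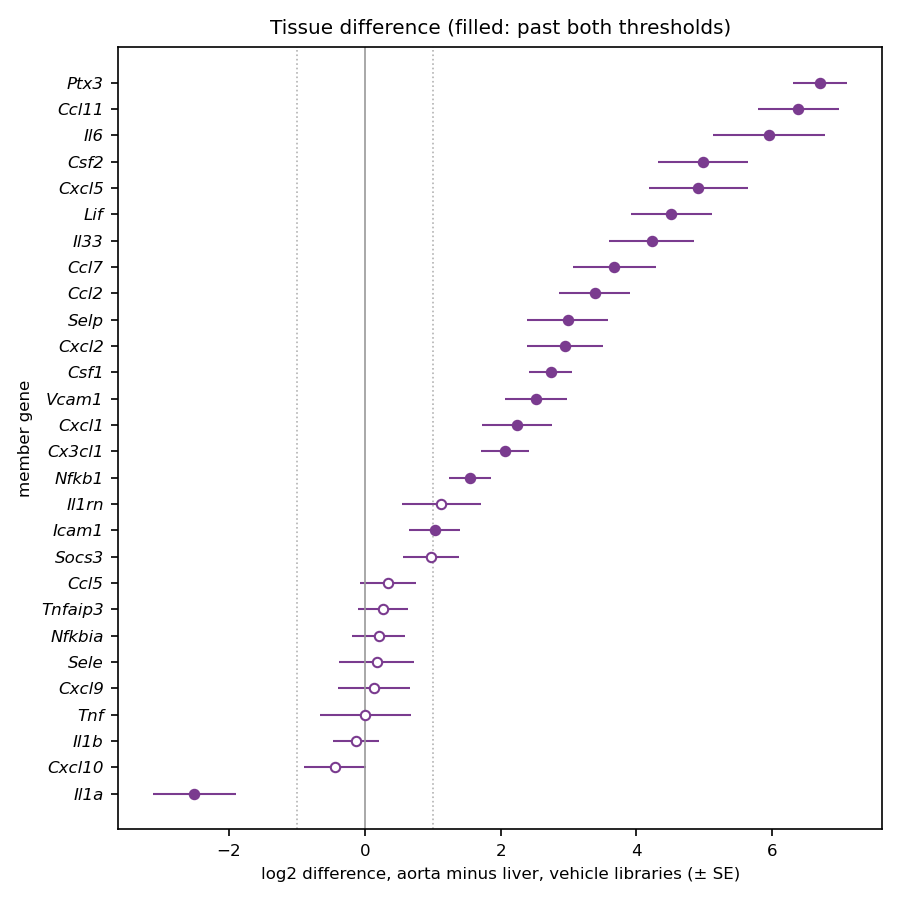
Log2 difference between aorta and liver in the vehicle libraries for the 28 members tested, with SE (edgeR). Filled points passed an adjusted p under 0.05 and a log2 difference over 1 (dotted lines); 17 lie to the right and Il1a alone to the left.

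Levels of different genes can be compared only per length. Divided by the length of the longest transcript in GENCODE M21, Ccl2 led in aorta with vehicle, at 591 ± 267 CPM per kilobase (SD, n = 4), followed by Cxcl1 (352 ± 357), Il6 (241 ± 204), Ccl7 (193 ± 196), Ptx3 (179 ± 61.5) and Vcam1 (167 ± 66.4). These SDs are as large as the gaps between most neighbours in this order, and the o and n libraries differ. Cxcl1 had rank 2 of 30 in the n libraries and rank 11 in the o libraries, while Ccl2 had rank 1 in both. In liver with vehicle Nfkbia had rank 1 in the n libraries and rank 9 in the o libraries, and Ccl2 rank 3 and rank 1.

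After 4 h in culture, E2 was set against vehicle in aorta, and no member passed the threshold. The 10 smallest p-values among the members all belonged to genes with a lower level in E2 aortas, most of them genes of leukocyte attractants or myeloid growth factors. By role, differences below 0 were found for 3 of 4 adhesion molecules, 3 of 4 CC chemokines, 4 of 6 CXC and CX3C chemokines, 7 of 7 interleukins and TNF, 3 of 3 colony-stimulating factors and 4 of 5 of the remaining genes. Of 29 members tested, 24 had a log2 difference below 0 (82.8%), against 51.3% of the 13698 genes tested, and the median was −0.30 against −0.0083. A lower level with an unadjusted p under 0.05 belonged to 9 of the 29, against 2.05% of genes. In 10 of 29 (34.5%) the E2 library lay below the vehicle library of its suffix for all 4 suffixes, against 6.43% of genes. These counts describe a list chosen with results of these data known.

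The threshold was an adjusted p under 0.05 over all genes tested. Called genes were 0 of 13698 (0.0%), and adjusted p of the members lay between 0.924 and 1.00 (edgeR, quasi-likelihood). Without adjustment 495 genes had a p under 0.05. DESeq2 called 24 genes and limma voom 0, with 0 members in either. With the suffix as a replicate block edgeR called 12 genes (0.0876%), and 0 members.

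**Figure D3:**
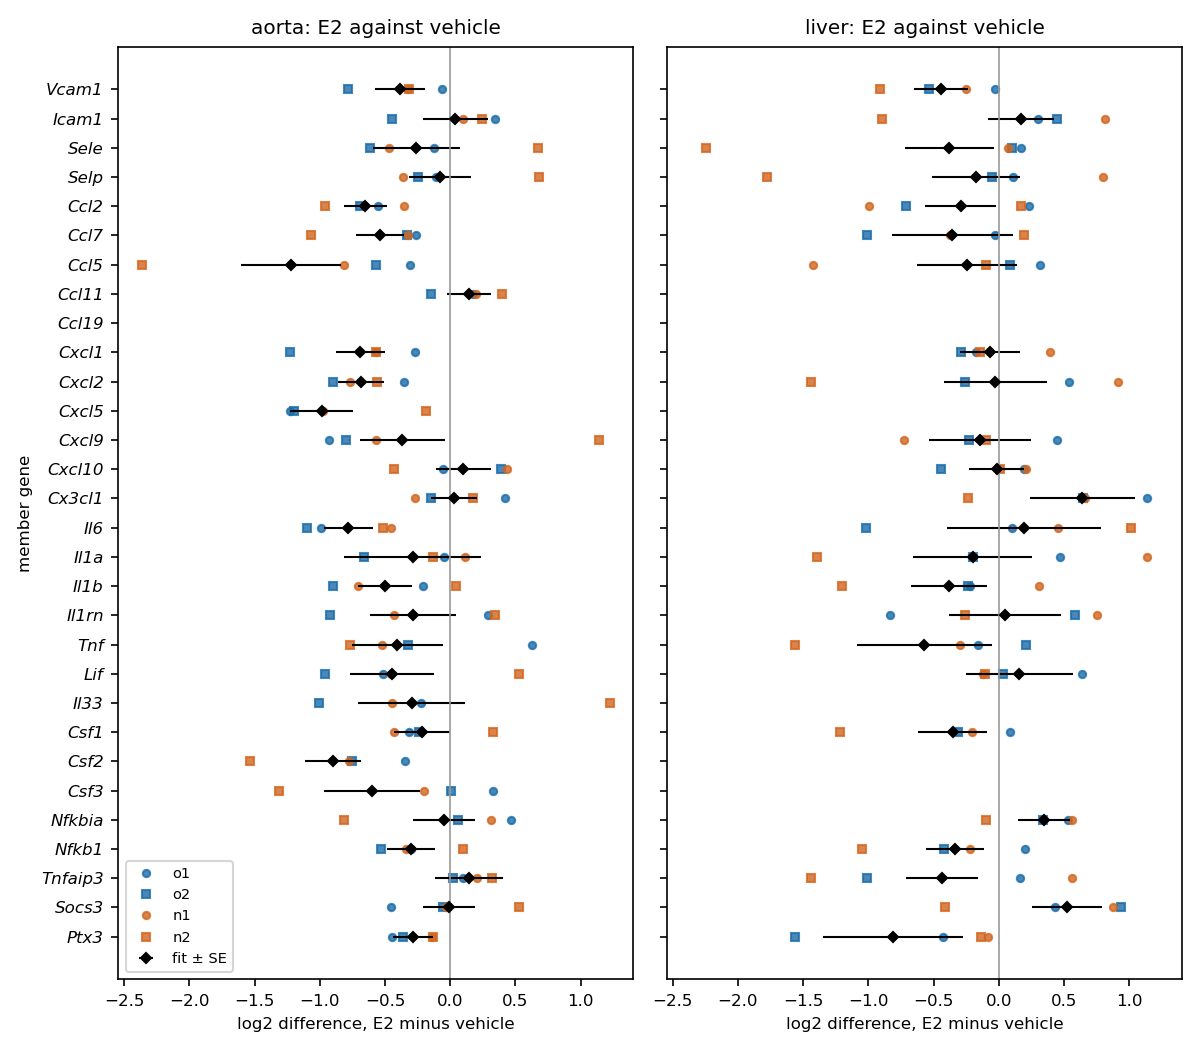
Log2 difference between E2 and vehicle in aorta and liver for each member: the edgeR value with SE (black) and, per suffix, E2 minus vehicle in log2(CPM + 1). In aorta 24 of 29 black points lie left of 0, and the n2 squares often stand apart from the other suffixes.

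Among adhesion molecules in aorta, Vcam1 stood at 883, 354, 619 and 458 CPM with vehicle and 847, 205, 495 and 368 with E2. It was lower in each suffix, hardly so in o1, and the groups overlapped, with o1 far above the others in both. The log2 difference was −0.38 ± 0.19. Icam1 (0.038 ± 0.25), Selp (−0.080 ± 0.24) and Sele (−0.26 ± 0.33) differed by less than their standard errors.

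The CC chemokines that attract monocytes were lower with E2 in every suffix. Ccl2 stood at 445, 189, 617 and 672 CPM with vehicle and 302, 117, 481 and 344 with E2. Its difference was −0.65 ± 0.16, or 1.57-fold lower, with the groups overlapping over all 4 suffixes but not within the n libraries. Ccl7 stood at 23.8, 19.2, 246 and 329 CPM with vehicle and 19.7, 15, 196 and 156 with E2 (−0.54 ± 0.18). Its level depended far more on the library letter than on E2.

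Ccl5, an attractant of T cells and monocytes, stood at 25.7, 7.62, 9.36 and 22.3 CPM with vehicle and 20.6, 4.81, 4.89 and 3.52 with E2, a difference of −1.22 ± 0.38. The suffix difference was −2.36 in n2, against −0.31 in o1, and without n2 the fitted value was −0.64. T cells express Ccl5, and lymphocyte markers, given below, had their lowest difference in the same suffix. Their median was −0.89 in o2, where Ccl5 differed by −0.57. It was 0.36 in o1 and 0.51 in n1, where Ccl5 differed by −0.31 and −0.81. A link between them was not tested. Ccl11 did not share this direction, at 0.14 ± 0.17, and was lower only in o2. Ccl2, Ccl7 and Ccl11 are similar neighbouring genes, and how reads that match several places were counted is not given in the sources used here.

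The neutrophil attractants were lower with E2 in every suffix as well. Cxcl1 stood at 51.8, 32.8, 666 and 592 CPM with vehicle and 42.7, 13.4, 448 and 399.9 with E2 (−0.69 ± 0.19). Cxcl2 stood at 50.4, 30.3, 151 and 112 CPM with vehicle and 39.2, 15.8, 88.0 and 75.5 with E2 (−0.68 ± 0.18). Both E2 libraries lay below both vehicle libraries within n for each gene, and within o they overlapped.

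Cxcl5 stood at 19.7, 13.9, 69.6 and 37.6 CPM with vehicle and 7.87, 5.52, 34.9 and 32.9 with E2. Its difference was −0.99 ± 0.24, or 1.98-fold lower, and within o and within n the groups did not overlap. The remaining chemokines were not lower throughout. Cxcl10 was at 0.10 ± 0.21 and Cx3cl1 at 0.028 ± 0.18, each lower in 2 of 4 suffixes. Cxcl9 was at −0.37 ± 0.33, with suffix differences of −0.93, −0.80, −0.57 and 1.14, so n2 alone was higher with E2.

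All 7 interleukin and TNF genes had differences below 0. Il6 stood at 186, 127, 1076 and 866 CPM with vehicle and 92.9, 58.8, 784 and 606 with E2. Within o and within n each E2 library lay below both vehicle libraries, although the n libraries of either group were far above all o libraries. The difference was −0.78 ± 0.19, or 1.72-fold lower, with an unadjusted p of 0.00248 and an adjusted p of 0.925 (edgeR). With the suffix as a block the adjusted p of Il6 was 0.140 (edgeR), the smallest of any member in that fit. DESeq2 gave Il6 an adjusted p of 0.0694, also short of the threshold.

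Il1b stood at 15.2, 14.9, 32.6 and 22.1 CPM with vehicle and 13.0, 7.51, 19.6 and 22.9 with E2 (−0.50 ± 0.21). It was lower in 3 of 4 suffixes and level in n2. The other 5 lay between −0.28 for Il1rn and −0.45 for Lif, with standard errors from 0.32 to 0.53. Lif and Il33 were lower in 3 suffixes and higher in n2.

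Csf2 had the smallest p of the members for E2 in aorta. It stood at 109, 62.4, 30.4 and 42.3 CPM with vehicle and 85.5, 36.6, 17.4 and 13.9 with E2, lower in every suffix and most so in n2. The difference was −0.90 ± 0.21, or 1.87-fold lower, with an adjusted p of 0.924 (edgeR). Csf3 stood at 0.631 to 1.97 CPM in the o libraries of aorta. It stood at 47.0 and 117 CPM in n1 and n2 with vehicle and at 40.8 and 46.5 with E2, and differed by −0.60 ± 0.37. Csf1 was at −0.22 ± 0.21.

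No intracellular regulator was lower in all 4 suffixes. Nfkbia was higher with E2 in 3 suffixes and lower in n2 (0.47, 0.058, 0.32 and −0.82), and differed by −0.047 ± 0.24, Socs3 by −0.011 ± 0.20 and Nfkb1 by −0.30 ± 0.18. Tnfaip3, at 186, 142, 76.8 and 38.6 CPM with vehicle and 199.99, 145, 88.6 and 48.4 with E2, was the only tested member higher with E2 in all 4 suffixes, by 0.14 ± 0.26. Ptx3 was lower in all 4, at 383, 483, 263 and 227 CPM with vehicle and 280.2, 375, 239 and 208 with E2, by −0.29 ± 0.15.

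**Figure D4:**
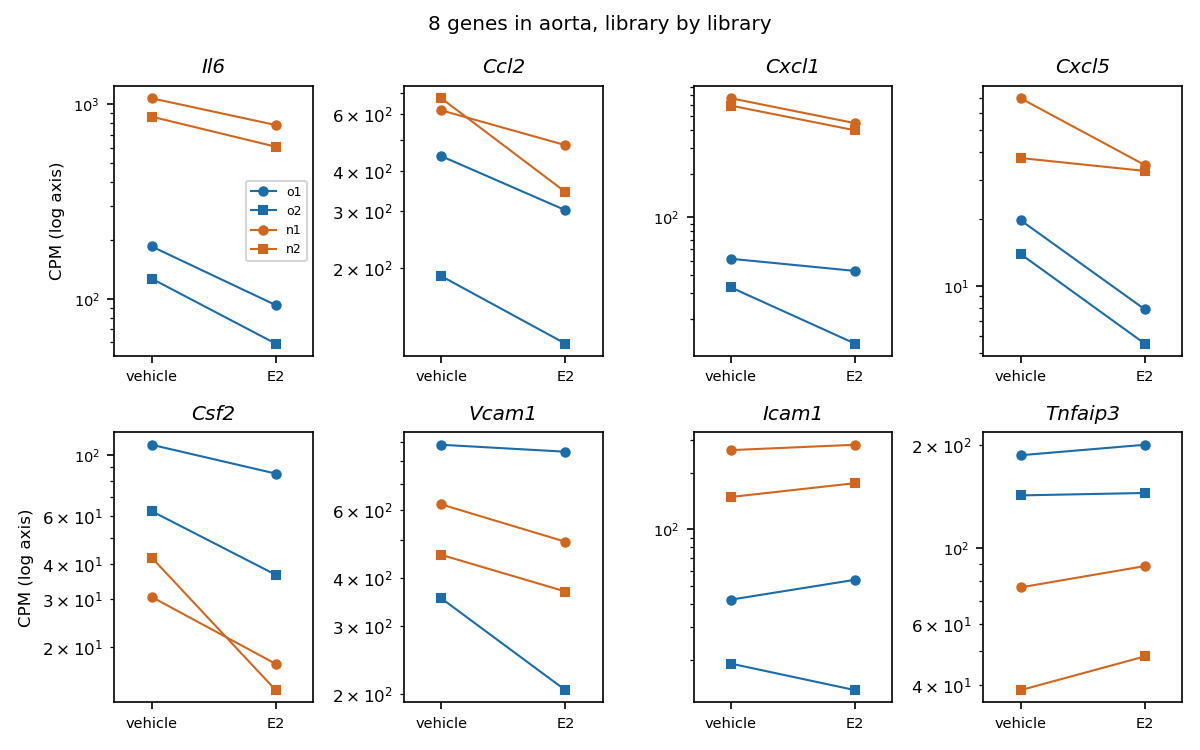
CPM (log axis) of 8 genes in the aorta libraries; each line joins the vehicle and the E2 library of a suffix (blue, o; orange, n). The lines of Il6, Ccl2, Cxcl1, Cxcl5, Csf2 and Vcam1 slope down in all 4 suffixes, those of Tnfaip3 slope up in all 4, and Icam1 is mixed.

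The aortic result changed with the n2 libraries. In the o libraries alone, a fit with 1 residual degree of freedom, 33 genes passed (0.275%), among them Cxcl5 (log2 −1.34), Cxcl9 (−0.89) and Il6 (−1.06), all lower, and the median of the members was −0.41. In the n libraries alone 0 members passed, 21 of 29 were below 0 and the median was −0.16. Without both n2 libraries 35 genes passed (0.269%), the same 3 members among them, and 19 of 29 members were lower in o1, o2 and n1, against 13.3% of genes. Without the vehicle library n2 alone 17 genes passed (0.123%), Cxcl5 among the members (adjusted p 0.00675, edgeR). Without the vehicle library n1 the members below 0 numbered 18 and their median was −0.16. The difference between the E2 effects of n and o libraries, tested directly, passed for no gene in aorta (0.0%; 126 genes with an unadjusted p under 0.05, 0 of them members).

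Markers of leukocytes differed in the same libraries. All 12 lymphocyte markers were below 0 with E2 in aorta (median −1.46), and none passed. Their summed level was 17.4, 86.7, 23.9 and 279 CPM with vehicle and 28.9, 31.7, 59.6 and 26.1 with E2, so the vehicle library n2 stood far above the rest. Per suffix their median difference was 0.36, −0.89, 0.51 and −2.82, while that of the 29 members was −0.23, −0.57, −0.36 and −0.13, closest to 0 in n2. That median covers a wide split of members in n2. They ran from −2.36 for Ccl5 and −1.54 for Csf2 to 1.14 for Cxcl9 and 1.22 for Il33.

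Neutrophil markers were below 0 in 6 of 6 tested (median −0.75), at 3.75, 9.71, 16.3 and 108 CPM summed with vehicle and 12.7, 4.68, 7.67 and 25.3 with E2. Macrophage markers were below 0 in 12 of 13 (median −0.11), with Cd68 at −0.45 ± 0.19, and summed to 229, 355, 399 and 445 CPM with vehicle and 242, 259.7, 320.2 and 423 with E2. Endothelial markers were below 0 in 7 of 12 (median −0.063) and fibroblast markers in 10 of 10 (median −0.12). Hepatocyte markers, known from liver cells, were below 0 in 10 of 10 tested (median −0.82). Each marker of these leukocyte lists that is in the table had counts in every group. The part of any of these lists in the members' differences was not tested.

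The wider pathway was read from lists that hold no member. Receptors of these cytokines and chemokines were below 0 with E2 in aorta in 14 of 19 tested, with Il1rl1, the receptor gene for interleukin 33, at −1.13 ± 0.38. Il6ra, the interleukin 6 receptor gene, lay the other way, at 0.92 ± 0.22, and was higher in all 4 suffixes. Of other chemokine genes 11 of 12 were below 0 (median −0.50), with Cxcl3, a neighbour of Cxcl1 and Cxcl2, at −0.84 ± 0.27.

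The integrins and ligands by which leukocytes bind adhesion molecules were below 0 in 10 of 12 (median −0.79), with Itgb2, the β2 integrin gene, at −0.67 ± 0.20. Of 24 NF-κB pathway genes 13 were below 0 (median −0.018), with Nfkbie, another inhibitor gene, at −0.97 ± 0.30 and Nfkb2, a subunit gene, at −0.46 ± 0.19. JAK-STAT genes were below 0 in 7 of 17 and interferon response genes in 6 of 16. No gene of these 6 lists passed the threshold in either tissue, against 0.0% of all genes.

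In liver, no member passed the threshold for E2 against vehicle, and differences were scattered. Of 24 members tested 17 were below 0 (70.8%), against 50.7% of 11726 genes, with a median of −0.19 against −0.0053. None of the 24 had an unadjusted p under 0.05 (0, against 4.28% of genes), and 2 of 24 (8.33%) were lower in all 4 suffixes, against 6.38%. In liver the suffix was not read as a pairing, so suffix counts there match libraries by column name alone. The liver fit still held o1 and o2 as separate batch levels. Called genes numbered 0 (0.0%) with edgeR, DESeq2 and limma voom alike. Ccl11, Ccl19, Cxcl5, Il33, Csf2 and Csf3 were too low to test.

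Vcam1 had the smallest p of the members in liver. It stood at 180.1, 199, 39.8 and 56.1 CPM with vehicle and 177, 137, 33.2 and 29.4 with E2. It was lower in every suffix, hardly so in o1 (−0.028, −0.54, −0.25 and −0.91). The groups did not overlap within o or within n, though within o the gap was narrow. The difference was −0.44 ± 0.21, with an adjusted p of 0.939 (edgeR), next to −0.38 ± 0.19 in aorta. Endothelial markers in liver were below 0 with E2 in 10 of 12 (median −0.23). Their suffix medians were −0.021, 0.21, 0.044 and −0.97. Their part in the Vcam1 difference was not tested. The only other member lower in all 4 suffixes was Ptx3, whose levels in liver were under 10 CPM (−0.81 ± 0.54).

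Regulators that NF-κB and interleukin 6 induce stood on either side of 0. Socs3 stood at 7.21, 7.52, 44.1 and 54.3 CPM with vehicle and 10.1, 15.3, 81.8 and 40.6 with E2 (0.52 ± 0.27), higher in 3 suffixes and lower in n2. Nfkbia stood at 27.2, 29.2, 182 and 196 CPM with vehicle and 39.8, 37.0, 269.6 and 183 with E2 (0.35 ± 0.20), with the same split of suffixes. Both genes overlapped between groups over all libraries and not within o.

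Tnfaip3 stood at 148, 225, 22.2 and 45.8 CPM with vehicle and 166, 112, 33.1 and 16.2 with E2 (−0.44 ± 0.28), lower in o2 and n2 and higher in o1 and n1. Cx3cl1 stood at 5.60, 1.32, 5.44 and 9.34 CPM with vehicle and 13.5, 2.63, 9.17 and 7.77 with E2 (0.64 ± 0.40). It was higher in 3 suffixes, on few counts. Of the 6 attractants that were lower in all 4 suffixes of aorta, Cxcl5 was too low to test in liver. The other 5 were at −0.36 ± 0.46 for Ccl7, −0.29 ± 0.27 for Ccl2, −0.25 ± 0.38 for Ccl5, −0.068 ± 0.23 for Cxcl1 and −0.027 ± 0.39 for Cxcl2. Il6 was at 0.19 ± 0.59 on 1.69 to 10.3 CPM with vehicle.

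The counts in liver changed with a vehicle library. Without the vehicle library n2 the members below 0 numbered 11 of those tested and their median was 0.036, and in the o libraries alone the median was 0.039. That library had the highest Il1b level of liver, at 34.1 CPM. In it neutrophil markers summed to 181 CPM, against 11.3 to 64.6 in the other 3 vehicle libraries. In the fit over all liver libraries, lymphocyte markers were below 0 with E2 in 8 of 9 and macrophage markers in 13 of 14. The part of these marker lists in the result was not tested. Receptors (12 of 16), other chemokines (4 of 8), leukocyte ligands (9 of 11), NF-κB genes (14 of 24), JAK-STAT genes (12 of 17) and interferon genes (9 of 15) were below 0 in liver.

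The E2 effects of the 2 tissues were then compared directly. No gene passed (0 of 14190, 0.0%, edgeR, adjusted p; 761 with an unadjusted p under 0.05, and 10 called by DESeq2, 0 of them members). Of 29 members 18 had a lower effect in aorta (62.1%), against 49.4% of genes. The 8 lowest values were those of Csf3 (−1.32 ± 0.89), Cxcl5 (−0.99 ± 0.73), Ccl5 (−0.93 ± 0.56), Csf2 (−0.89 ± 0.67), Il6 (−0.83 ± 0.60), Cxcl2 (−0.66 ± 0.42), Lif (−0.62 ± 0.47) and Cxcl1 (−0.60 ± 0.30). Adhesion molecules lay between −0.13 and 0.15. Ccl11 had the smallest p of the members, at 2.25 ± 0.95, on 10 counts with vehicle and 2 with E2 over the liver libraries. For these 9 genes the standard errors of the difference between tissues were above those of the effect in aorta.

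Members varied more with the library letter than with E2. In aorta 12 of 29 were higher in n than in o libraries past both thresholds, against 33.0% of genes, and 8 were lower, against 28.1%. In liver 4 of 24 were higher, against 33.7%, and 13 were lower, against 35.7%. In aorta both shares of members lie near those of all genes.

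**Figure D5:**
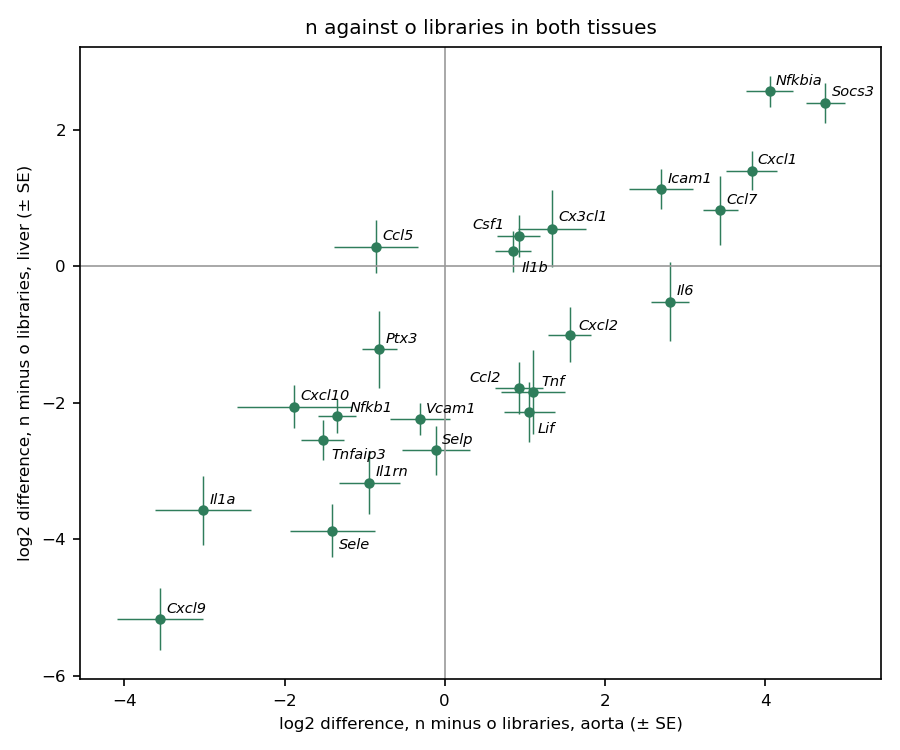
Log2 difference between n and o libraries (SE) in aorta (horizontal) and liver (vertical) for the 24 members tested in both. Socs3, Nfkbia, Cxcl1 and Icam1 lie at the upper right, Cxcl9, Il1a and Sele at the lower left, and Cxcl2, Tnf and Lif are higher in n in aorta and lower in liver.

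Socs3, Nfkbia, Cxcl1 and Icam1 were higher in the n libraries of both tissues. Socs3 was higher by 4.75 ± 0.25 in aorta and 2.39 ± 0.29 in liver, Nfkbia by 4.06 ± 0.30 and 2.56 ± 0.23, Cxcl1 by 3.83 ± 0.32 and 1.40 ± 0.29, and Icam1 by 2.70 ± 0.40 and 1.13 ± 0.29. These were the 4 members higher in both tissues, 16.7% of the 24 tested in both, against 25.5% of 11118 genes. They were 20% of the 20 called in aorta and 23.5% of the 17 called in liver. Csf3 (5.77 ± 0.47), Ccl7 (3.44 ± 0.22) and Il6 (2.82 ± 0.24) were higher in aorta.

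Lower in the n libraries of both tissues were Sele, Cxcl9, Cxcl10, Il1a, Nfkb1 and Tnfaip3, 25% of the 24 against 25.3% of genes. They were 30% of the 20 called in aorta and 35.3% of the 17 in liver. Cxcl9 was at −3.56 ± 0.54 in aorta and −5.17 ± 0.45 in liver, and Il1a at −3.01 ± 0.60 and −3.58 ± 0.50. Tnfaip3 and Nfkbia, both feedback inhibitors of NF-κB, thus lay on opposite sides, at −1.52 and 4.06 in aorta. Cxcl2, Tnf and Lif were higher in n in aorta and lower in n in liver, 12.5% of the 24 against 0.351% of genes. Of these values 1.06 for Lif and 1.10 for Tnf in aorta and −1.001 for Cxcl2 in liver were close to the threshold of 1. Vcam1 was at −0.31 ± 0.37 in aorta and −2.24 ± 0.23 in liver. What sets n apart from o libraries is not stated for these columns, and was not tested. In liver the E2 effects of n and o libraries differed for no gene past the threshold (0.0%; 1463 with an unadjusted p under 0.05, 0 of them members).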

How the data were processed

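RNA was sequenced in 16 libraries of aorta or liver. The tools and build named in the submitters' processing notes are Bowtie 0.12.5 with mm9, HTSeq 0.4.5p7 and edgeR 3.4.2. No source used here gives the annotation, the strand setting or any filter, so reads of overlapping or antisense genes may be mixed. The authors deposited read counts per gene symbol, handled here as estimated counts because each column closes with a percentage line that is not whole. The values of all 24011 genes were whole, so rounding changed nothing. The 8 rows that name no gene were left out, the largest being reads in no gene (48.0% to 75.2%).

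Columns were assigned to groups by the tissue and treatment in their names. The tests ran in R 4.3.3 with edgeR 4.0.16 (TMM, glmQLFit and glmQLFTest, filterByExpr with minimum count 10 and total 15, Benjamini-Hochberg adjusted p under 0.05 over all genes tested). The E2 comparisons used the 8 libraries of a tissue with a batch of 3 levels (o1, o2, n). Tissues were compared in the vehicle libraries, the difference of E2 effects as an interaction, and n with o libraries within a tissue, with treatment as a term. Comparisons of tissues and of library letters also needed an absolute log2 difference over 1. The SE is the absolute log2 difference divided by the square root of F, and a suffix difference is E2 minus vehicle in log2(CPM + 1). Scripts were tested on simulated data. In the simulated aorta comparison of 13698 genes 43% of genes changed by log2 1 and 96% of those changed by log2 2 were recovered. Changes were placed only in genes with higher mean counts, so these shares do not cover genes of low count. Of the unchanged genes 13 were called.

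The suffix was checked as a pairing by correlating, across genes, the deviations of the vehicle and E2 library of a suffix from their group means. In aorta r was 0.91, 0.93, 0.92 and 0.89. The highest r with an E2 library of another suffix was 0.81, 0.79, 0.87 and 0.80. With the mean of the letter removed, r within a suffix was 0.50 (o) and 0.43 (n) in aorta. In liver it was then 0.25 (o) and −0.05 (n). Both suffixes of a letter then give the same r. Tissue of the same animals cannot be told apart from a shared library batch by this check. The suffix was therefore taken to pair aorta libraries only, which no label states.

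The members and gene lists were chosen with earlier results of these data known. Values for every library are given for 18 members: those past the threshold in an E2 comparison (0), the 10 with the smallest p for E2 in aorta, the 5 with the smallest for liver, and the 8 with the largest called tissue difference. Some of the other members are given so as well, chosen after their values were seen. Of each other list at most 2 genes with the smallest p were named. Alternatives were RLE scaling (DESeq2's size factors), no filter on low counts, DESeq2 1.42.0, limma voom 3.58.1, the replicate block, no batch, o or n libraries alone, removal of a trend with transcript length (GENCODE M21), E2 in place of vehicle libraries for the tissue comparison, and leaving out each library or suffix. The block without each suffix, the length trend without the block, and counts over the remaining suffixes were added after seeing the data.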

Additional observations from a re-analysis of the deposited data

Results flagged for a closer look

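In 4 of 70 groups of 4 libraries with at least 20 counts, a single library stood apart from the other 3 by a share of the group's range above Dixon's 95% critical value. Chance flags about 1 in 20 groups. Ccl5 stood at 20.57 CPM in the E2 aorta library o1 and at 3.52 to 4.89 CPM in the other 3 E2 libraries. Il1b stood at 34.05 CPM in the vehicle liver library n2, against 16.9 to 19.8 CPM in the other 3. Ptx3 stood at 8.838 CPM in the vehicle liver library o2, against 1.58 to 2.67 CPM. Lif stood at 224.9 CPM in the vehicle aorta library n1, against 73.9 to 92.2 CPM.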

How the results depend on the processing

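For E2 in aorta the named members kept their direction in all 26 settings. They kept their side of the threshold in 253 of 260 values, and the other 7 were Il6 or Cxcl5 passing without n2 libraries (without suffix n2 with and without the block, without the vehicle library n2, and in the o libraries alone). Members past the threshold numbered 3 in the o libraries alone and 0 to 3 when a library or suffix was left out; with n2 left out under the block, chosen after seeing the data, 3 also passed. Over all genes edgeR called 0 in aorta, against 12 with the replicate block, 24 with DESeq2, 33 in the o libraries alone, 35 without suffix n2 and 17 without the vehicle library n2. For the difference between tissues it called 0, against 1 with the block and 10 with DESeq2. With the replicate block 0 members passed, 23 were below 0 and the median was −0.32, and the block changed no other call of a member for E2. In the tissue comparison the block gave 16 members higher, without Icam1. Members lower in every remaining suffix numbered 10 to 19 in aorta and 3 to 5 in liver with a suffix left out. In liver members below 0 numbered 11 to 21 with a library or suffix left out, and the named members kept direction and side in all 130 values. In the tissue comparison members called lower numbered 0 to 1 with a library left out, and the named members passed in all 104 values. The causes of these shifts were not tested. Across genes the E2 difference varied with transcript length (Spearman's rho 0.25 in aorta and −0.29 in liver; genes are not independent), and with that trend removed 23 of 29 members were below 0 in aorta (median −0.30). In counts simulated for aorta 43% of changes of log2 1 were recovered. Smaller changes, and changes in genes of low count, were not simulated.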
